A study of Mus musculus with 16 samples.

Results

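The fibrillar collagens of tendon were followed as 8 genes: Col1a1 and Col1a2, which encode the 2 chains of type I collagen, Col3a1 (type III collagen), Col5a1, Col5a2 and Col5a3 (the chains of type V collagen), and Col24a1 and Col27a1 (type XXIV and type XXVII collagen). The genes were taken by symbol through their Ensembl identifiers, and all 8 were found among the 29629 gene rows of a single-cell table and among the 47729 gene rows of an Achilles tendon table. The single cells came from ScxGFP iPSCs, mouse induced pluripotent stem cells that carry a GFP transgene driven by the promoter of Scx, a transcription factor of the tendon lineage. They were derived from 1 clone kept on a feeder layer of mouse embryonic fibroblasts, were led through mesodermal induction with the Wnt activator CHIR99021 and the hedgehog inhibitor cyclopamine, and were sorted as living cells into 384-well plates before TGF-β2 was added (T0) and after 3, 6 and 9 days in 10 ng/ml TGF-β2 (T3, T6 and T9), with 3 plates at each time. There was no group kept without TGF-β2 from T3 to T9, so that time in culture and TGF-β2 cannot be told apart, and T0 cells were released with trypsin alone whereas collagenase was also used later. The tissue was Achilles tendon of littermates at 2 weeks of age, 2 samples of Scx wild type (Scx_Wt) and 2 of a homozygous Scx knockout (Scx_homoKO). The allele and the pooling of animals behind the tissue samples are not given in the sources used here.

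Fibrillar collagens are made as procollagen chains that fold into a triple helix of 3 chains, are trimmed at both ends outside the cell, and pack into the banded fibrils that carry load in tendon. Type I collagen, built mainly from 2 Col1a1 chains and 1 Col1a2 chain, forms the bulk of these fibrils. Type III collagen is typical of young and healing tendon and of thin fibrils, and type V collagen lies within type I fibrils, where it takes part in starting them and in limiting their width. Types XXIV and XXVII are minor members with shorter or interrupted helices. Types II and XI (Col2a1, Col11a1 and Col11a2) are the fibrillar collagens of cartilage and are called the cartilage relatives below.

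In GRCm38, Col3a1 (chr1:45311538-45349706, plus strand) and Col5a2 (chr1:45374321-45503282, minus strand) are neighbours that lie 24614 bases apart with 0 other annotated genes between them. The other members lie on separate chromosomes: Col5a1 at chr2:27886425-28039514, Col24a1 at chr3:145292472-145552011, Col27a1 at chr4:63214004-63334991, Col1a2 at chr6:4504814-4541544 and Col1a1 at chr11:94936224-94953042, all on the plus strand, and Col5a3 at chr9:20770050-20815067 on the minus strand. Exons of Col5a1 share 99 and 113 bases with a pair of genes on the opposite strand, and an exon of Col3a1 shares 141 bases with an annotated miRNA gene on the same strand. Reads in these short stretches can overlap another gene as well. The study's mapping summary of the single cells lists ambiguous reads apart from assigned ones.

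RefSeq promoters of the same build were given for 6 of the 8 members, all but Col1a1 and Col5a2. The 250 bases before the start were searched on both strands for the E-box CANNTG, the kind of motif that Scx and other basic helix-loop-helix factors bind, and for the GC box GGGCGG of Sp1-like factors. The upstream sequences of Col3a1, Col5a1 and Col1a2 are printed, with CANNTG and GGGCGG matches in capitals. Of these motifs Col3a1 held only E-boxes, and Col5a1 and Col1a2 held only GC boxes. They are, 5′ to 3′ on the plus strand, chr1:45311288-45311537 for Col3a1, chr2:27886175-27886424 for Col5a1 and chr6:4505370-4505492 for Col1a2, the last cut to the 123 bases outside annotated exons. The start is that of RefSeq. For Col1a2 and Col27a1 it lies after the gene start given above, so their stretches fall inside the annotated gene span.
Col3a1: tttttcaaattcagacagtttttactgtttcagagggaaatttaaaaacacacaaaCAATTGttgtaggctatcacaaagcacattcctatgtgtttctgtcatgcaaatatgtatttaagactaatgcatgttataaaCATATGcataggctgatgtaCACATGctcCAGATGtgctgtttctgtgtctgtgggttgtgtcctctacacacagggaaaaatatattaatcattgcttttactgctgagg
Col5a1: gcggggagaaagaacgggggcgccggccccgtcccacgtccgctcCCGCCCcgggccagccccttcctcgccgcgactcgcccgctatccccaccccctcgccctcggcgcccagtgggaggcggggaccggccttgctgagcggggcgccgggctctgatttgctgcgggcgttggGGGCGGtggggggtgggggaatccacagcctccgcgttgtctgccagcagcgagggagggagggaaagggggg
Col1a2: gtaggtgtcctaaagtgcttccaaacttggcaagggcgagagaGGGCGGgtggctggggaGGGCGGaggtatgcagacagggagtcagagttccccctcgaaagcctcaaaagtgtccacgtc
Col3a1 held 4 E-box matches and 0 GC box matches at a GC content of 35.2%. Col5a1 held 0 E-box and 2 GC box matches at 76.4% GC, and Col1a2 likewise held 0 and 2 at 62% GC over its 250 bases. Col24a1 held 3 E-box and 0 GC box matches, Col27a1 held 1 and 1, and Col5a3 held 1 and 2. An E-box occurred in 66.2% and a GC box in 32.7% of all 32851 promoters of this length, whose median GC content was 52.4%. These are letters in a window and do not show binding.

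The single-cell libraries counted 3′ ends with unique molecular identifiers (UMIs), and levels are given as CPM, a gene's count scaled to 1000000 UMIs in its plate. Wells with at least 200 detected genes were kept, which left 4594 of 4608, and the same 384 cell barcodes were used on every plate. Plates held 1921125 to 4657093 UMIs. The plates fell on either side of a technical divide, the share of reads assigned to no feature: it was larger in 7 plates (all of T0, the second of T3, the first and the third of T6, the third of T9) and smaller in the other 5. The members moved with this divide, so values are also given within each side, which for T0 exists on 1 side only. Scx, whose promoter drives the reporter, went from 9.51 ± 2.39 CPM (SD, n = 3) at T0 to 734 ± 28.6 at T3 and 162 ± 47.4 at T9, and Tnmd, a late tendon marker, had no UMI at T0 and 106 ± 37.9 CPM at T9. The summed level of 10 tenocyte markers was 333 to 410 CPM at T0, where Tnmd and Kera were at 0, and 4186 to 5516 CPM at T9. Markers of other cell types also moved: 6 smooth muscle markers summed to 303 to 646 CPM at T0 and 2508 to 3792 CPM at T9, 10 parietal endoderm markers to 928 to 1097 and 6050 to 11110 CPM, 8 pluripotency markers to 371 to 780 and 0.332 to 296 CPM, and 7 epithelial markers to 413 to 527 and 30.8 to 129 CPM. Sox17 and Gata4 of the parietal endoderm list had no UMI at T3, where that list summed to 1325 to 2699 CPM. All its genes had UMIs at T0, T6 and T9. These are sums that a few abundant genes can carry, and they do not count cells. The part of these other cell types in the collagen levels was not tested. From UMIs summed per plate, fewer cells making a transcript and less of it per cell cannot be told apart.

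Col1a1, Col1a2, Col3a1, Col5a1, Col5a2 and Col27a1 rose from T0 to T3, and each T3 plate was above each T0 plate for these genes. Col24a1 was at most 10.3 CPM and Col5a3 at most 2.17 CPM in any plate. By T9 the 8 genes made up 3.38 ± 1.65% of all UMIs (SD, n = 3 plates), against 0.131 ± 0.00389% at T0, 1.07 ± 0.294% at T3 and 2.54 ± 0.933% at T6. Adjusted p-values below are from edgeR's quasi-likelihood test unless another tool is named, with Benjamini-Hochberg adjustment over the genes of each fit. The main fits held 13372 genes for the plates, 6401 to 7141 for wells split by Scx or Tnmd at 1 time and 14602 for the tissue. In this test on the UMI sums, 6 of the 7 members that passed the filter on low counts rose from T0 to T3. The same number rose from T0 to T9, and 0 fell. Of all genes tested, 33.2% were called between T0 and T3 and 45.2% between T0 and T9, in either direction. The median log2 fold change of the 7 members was 2.47 at T3 and 4.12 at T9, against 0.01 and -0.02 over all genes tested.

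Col1a1 was at 318, 232 and 254 CPM in the 3 T0 plates, at 2028, 5758 and 3503 CPM at T3, at 11625, 4500 and 11174 CPM at T6, and at 8273, 5768 and 20730 CPM at T9. Every plate from T3 onward was above every T0 plate, whereas plates of T6 and T9 overlapped. The log2 fold change over T0 was 3.99 ± 0.42 (SE) at T3 (adjusted p = 8.32e-06) and 5.83 ± 0.46 at T9 (adjusted p = 2.63e-07). Col1a2, the partner chain, was the most even gene before TGF-β2, with 184, 189 and 186 CPM at T0. It then stood at 2265, 3902 and 2910 CPM at T3, at 10571, 4324 and 10701 CPM at T6 and at 9472, 6894 and 18147 CPM at T9. It rose by 4.22 ± 0.33 on the log2 scale by T3 (adjusted p = 4.72e-07) and by 6.37 ± 0.36 by T9 (adjusted p = 1.22e-08), which as a ratio of mean CPM was 16.2-fold and 61.7-fold.

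Col3a1 was the most abundant member at T0, with 660, 800 and 821 CPM, and was detected in most wells before TGF-β2. Its plates lay at 3238, 3434 and 4016 CPM at T3, at 7099, 5268 and 7778 CPM at T6, and at 9721, 7401 and 11433 CPM at T9. The plates of T9 had a coefficient of variation of 21.3%, against 69.1% for Col1a1 and 51.2% for Col1a2. The log2 fold change over T0 was 2.47 ± 0.24 at T3 (adjusted p = 3.78e-06) and 4.12 ± 0.26 at T9 (adjusted p = 2.55e-08).

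**Figure D1:**
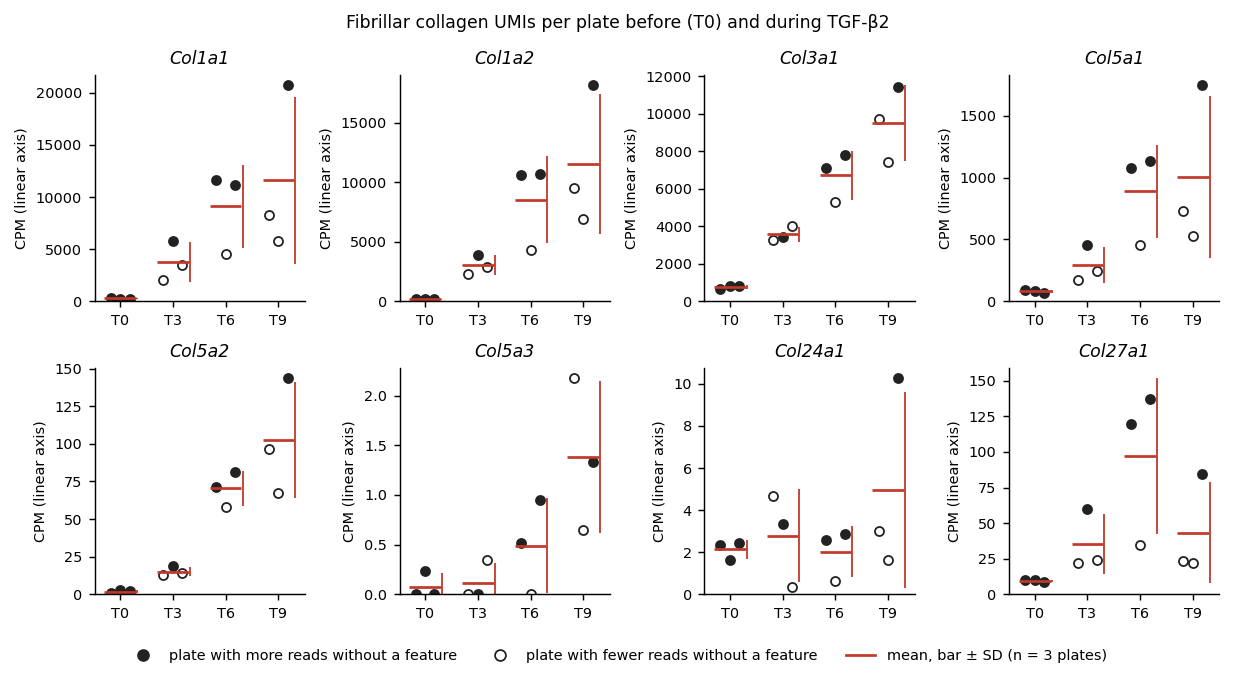
CPM of each of the 8 genes in each plate (points; linear axes, each gene on its own scale) at the 4 times, with the mean and SD of 3 plates; filled points are plates with more reads without a feature. Col1a1, Col1a2, Col5a1 and Col27a1 lie higher in the filled plates from T3 onward, and Col3a1 lies from 7401 to 11433 CPM at T9.

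Among the type V genes, Col5a1 was at 89.5, 84.5 and 64.6 CPM at T0, 169, 451 and 248 CPM at T3, 1079, 453 and 1131 CPM at T6 and 727, 529 and 1749 CPM at T9. Its rise over T0 was 2.04 ± 0.35 on the log2 scale at T3 (adjusted p = 0.000577) and 4.05 ± 0.38 at T9 (adjusted p = 1.44e-06). Col5a2 started close to the detection limit and rose by a larger factor. It had 0.859, 2.55 and 1.88 CPM at T0 (22 UMIs in all), 12.5, 18.8 and 13.9 CPM at T3, 71.4, 57.9 and 81.6 CPM at T6, and 96.7, 67.1 and 144 CPM at T9, and no plates of T0, T3 and T6 overlapped. The log2 fold change was 3.30 ± 0.33 at T3 (adjusted p = 5.28e-06) and 6.30 ± 0.31 at T9 (adjusted p = 3.03e-09). Col5a3 had 1, 1, 6 and 14 UMIs over the 3 plates of each time in turn, at most 2.17 CPM in a plate, and did not pass the filter on low counts.

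The minor members did not move alike. Col27a1 was at 9.66, 10.2 and 8.88 CPM at T0, 21.9, 59.7 and 24.4 CPM at T3, 120, 34.7 and 137 CPM at T6 and 23.6, 21.8 and 84.6 CPM at T9, so that its highest mean was at T6. It rose over T0 by 2.06 ± 0.48 at T3 (adjusted p = 0.00482) and by 2.55 ± 0.47 at T9 (adjusted p = 0.000607). Col24a1 stayed between 0.348 and 10.3 CPM in all plates, with a log2 fold change of 0.54 at T3 (adjusted p = 0.626) and of 1.57 at T9 (adjusted p = 0.0874). Its T9 value came mainly from plate 3, with 10.3 CPM against 2.99 and 1.61 CPM, and with the divide between plates as a covariate the log2 fold change was 2.19 (adjusted p = 0.00764). The cartilage relatives differed: Col2a1 went from 12.8 ± 1.19 CPM at T0 to 0.522 ± 0.383 at T9 and fell by 4.07 on the log2 scale (adjusted p = 0.000135), Col11a2 had 6 UMIs at T0 and none later, and Col11a1 rose from 45.1 ± 1.74 to 269 ± 144 CPM (log2 fold change 2.99 ± 0.26, adjusted p = 6.96e-07).

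Between plates of the same time, the members followed the divide in reads without a feature to different degrees. At T3, T6 and T9, Col1a1 was 2.08, 2.53 and 2.95 times as high in plates with more such reads as in plates with fewer, and Col27a1 was 2.58, 3.71 and 3.72 times as high. The same ratios were 1.51, 2.46 and 2.22 for Col1a2 and 2.17, 2.44 and 2.79 for Col5a1. For Col3a1 they were 0.947, 1.41 and 1.34, and for Col5a2 1.42, 1.32 and 1.75. Within the 7 plates with more such reads, where all T0 plates but only 1 T3 plate lie, the rises from T0 to T3 were 4.39 for Col1a1, 4.34 for Col1a2, 2.13 for Col3a1, 2.46 for Col5a1, 3.37 for Col5a2 and 2.59 for Col27a1 on the log2 scale, so the first step was as large as over all plates for 5 of the 6 and smaller for Col3a1.

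From T3 to T6, 4 of the 7 members tested rose, against 4.24% of all genes called. Col5a2 rose by 2.24 ± 0.25 on the log2 scale (adjusted p = 0.000323), Col5a1 by 1.64 ± 0.34 (adjusted p = 0.0139), Col1a2 by 1.49 ± 0.29 (adjusted p = 0.0102) and Col3a1 by 0.91 ± 0.23 (adjusted p = 0.0367). Col1a1 (1.30 ± 0.38, adjusted p = 0.0722) and Col27a1 (1.46 ± 0.43, adjusted p = 0.0786) missed the threshold, and Col24a1 stood at -0.39. Within the sides of the divide the same step was 1.11 and 0.86 for Col1a1, 1.57 and 0.89 for Col1a2, 1.24 and 0.69 for Col3a1, 1.41 and 1.27 for Col5a1, 2.15 and 2.27 for Col5a2 and 1.23 and 0.73 for Col27a1, in plates with more and with fewer such reads, where T3 and T6 respectively are a single plate. The number of members called fell to 1 without plate 1 of T3 or without plate 1 of T6 and to 2 without plate 3 of either time, with Col5a2 called each time. Col3a1 was not called with only the 6 plates compared (adjusted p = 0.112), with the replicate number as a block (adjusted p = 0.0693) or without any 1 of the T3 plates (adjusted p = 0.110, 0.106 and 0.0658). Without plate 2 of T6, the lowest of that time, Col1a1 (1.55, adjusted p = 0.0224) and Col27a1 (1.80, adjusted p = 0.0127) were called too.

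From T6 to T9 none of the 7 members was called, against 1.62% of all genes, and 4 of them (Col1a2, Col3a1, Col5a2 and Col27a1) had an unadjusted p under 0.05. The log2 fold changes were 0.55 for Col1a1, 0.66 for Col1a2, 0.75 for Col3a1, 0.38 for Col5a1, 0.76 for Col5a2, 1.42 for Col24a1 and -0.97 for Col27a1, with adjusted p-values from 0.106 to 0.602. This step depended on how the divide was handled. With it as a covariate, 6 members were called: Col1a1 at 0.82, Col1a2 at 0.88, Col3a1 at 0.70, Col5a1 at 0.64 and Col5a2 at 0.81 were higher at T9, and Col27a1 at -0.56 was lower (adjusted p = 0.0374). Within the sides of the divide T9 or T6 is a single plate, assumed to vary like the other groups. Within the plates with more such reads 4 were called (Col1a1, Col1a2, Col5a1 and Col5a2), within those with fewer 2 (Col1a2 and Col3a1), and DESeq2 called 2 (Col3a1 and Col5a2) over all plates. Without plate 3 of T9, Col27a1 alone was called, at -1.61 (adjusted p = 0.0341).

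The make-up of the fibrillar collagen transcripts differed between T0 and the later times. UMIs of 3′ ends do not grow with transcript length, so the members' UMIs were compared with each other without division by length. This takes the 3′ ends of all members as counted equally well, which was not tested. At T3, T6 and T9, plates with more reads without a feature held 2.08, 2.53 and 2.95 times the Col1a1 of plates with fewer. For Col3a1 these ratios were 0.947, 1.41 and 1.34, so the shares moved with the divide too. At T0, Col3a1 accounted for 52.2, 60.6 and 61.4% of the members' UMIs and type I collagen for 39.7, 31.9 and 32.8%. At T3 to T9 Col3a1 accounted for 21.9 to 41.8% and type I collagen for 55.5 to 74.3%, so the order of the 2 types was reversed in every plate. Type I collagen is here the sum of 2 genes. Taken singly, Col3a1 remained the largest member in all 5 plates with fewer reads without a feature. Examples are 41.8 against 29.3% for Col1a2 in plate 1 of T3 and 34.3 against 33.4% in plate 1 of T9. In the later plates with more such reads Col1a1 was the largest. The difference in the mean share of Col3a1 between the 3 T0 plates and the 9 later plates was 26.8 percentage points (58.0 against 31.2%; exact two-sided permutation test, p = 0.00909, the smallest that 3 against 9 plates allow). In the plates with more reads without a feature it was 34.2 points (exact p = 0.0571, the smallest for 3 against 4). The type V genes held 6.24 ± 1.14% of the members' UMIs at T0 (SD, n = 3) and 3.20% on average later (difference 3.04 points, exact permutation p = 0.00909; 2.55 points with exact p = 0.0571 within the plates with more such reads). Col5a1 held most of this share, at 6.10% on average at T0 and 2.60, 3.42 and 2.82% at T3, T6 and T9. The share of Col5a2 went the other way, from 0.134% at T0 to 0.143, 0.297 and 0.314%, and rested on 22 UMIs at T0.

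The balance of chains within a type was also measured. There were 1.73, 1.23 and 1.36 Col1a1 UMIs for each Col1a2 UMI at T0, and the mean was 1.19 ± 0.290 at T3, 1.06 ± 0.0331 at T6 and 0.951 ± 0.167 at T9. On the log2 scale the T0 plates were 0.44 above the later ones (exact permutation p = 0.0455), but the difference was 0.27 (exact p = 0.229) within the plates with more reads without a feature and 0.30 without plate 1 of T0 (exact p = 0.182), and 9 of the 12 plates when left out each took the p above 0.05. The ratio of Col5a1 to Col5a2 was not tested and rests on 4, 11 and 7 Col5a2 UMIs in the T0 plates. Col5a1 outnumbered Col5a2 by 57.2 ± 40.7 to 1 at T0, and by 18.4 ± 5.29, 12.3 ± 3.89 and 9.19 ± 2.60 to 1 at the later times. Read per length, the same ratio was below 1 in the tendon samples described below, and how fully the 3′ ends of either gene were counted was not tested.

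**Figure D2:**
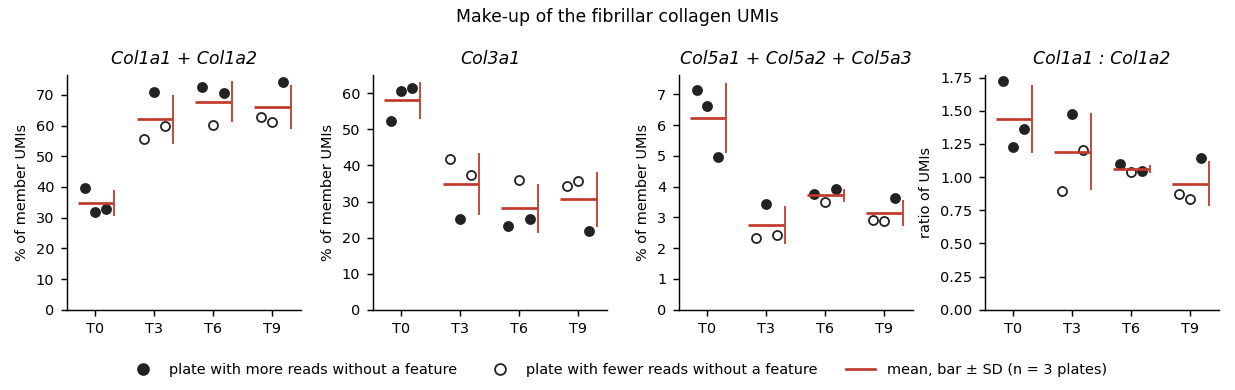
Percent of the 8 genes' UMIs held by type I collagen, by Col3a1 and by the type V genes, and the ratio of Col1a1 to Col1a2 UMIs, in each plate (points) with the mean and SD of 3 plates; filled points are plates with more reads without a feature. Col3a1 lies at 52.2 to 61.4% in the T0 plates and at 21.9 to 41.8% in the 9 later plates.

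Over single wells, each thinned to 3000 UMIs so that depth did not set the result (4301 wells had that many), type I collagen was counted at 0 or 1 UMI in the median well at T0 and at more in later plates. For Col1a1 and Col1a2 together that median was 12 to 28 in the T3 plates, 24 to 63 at T6 and 37 to 110 at T9. At T0 the top 10% of wells held 46.6 to 52.2% of all type I UMIs, and from T3 on it held 18.3 to 23.4%, a measure that low counts alone raise. Wells without a UMI at T0 may still hold the transcript. A Col1a1 UMI was present in 38.1 ± 4.62% of thinned wells at T0 and in 97.9 ± 1.15, 99.7 ± 0.279 and 99.1 ± 0.818% at T3, T6 and T9 (SD, n = 3 plates). Before thinning these shares were 59.8, 98.3, 99.8 and 100%.

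Col3a1 was already broad at T0, with a UMI in 77.3 ± 2.54% of thinned wells and in 97.6, 99.8 and 99.7% of them on average at T3, T6 and T9, the lowest plate being at 94.7%. Col5a1 was found in 19.2, 45.2, 80.6 and 80.8% of thinned wells at T0, T3, T6 and T9, Col5a2 in 0.466, 3.05, 12.9 and 18.5%, and Col27a1 in 2.05, 7.05, 21.1 and 10.5%. Free RNA can place a UMI in a cell that does not make the transcript. Wells with UMIs of at least 4 of 8 pluripotency markers, a cell type that should hold little collagen, served as the comparison at T0: in 73 such wells (median 18066 UMIs) a Col1a1 UMI was present in 12.3% after thinning, against 40.0% of the other wells (median 9926.5 UMIs), and a Col3a1 UMI in 28.8% against 80.9%. Col5a1 gave 8.22 against 19.9%. The shares of Col5a2 and Col27a1 at T0 were 0 and 1.37% in pluripotency marker wells against 0.501 and 2.10% in the others, and could not be told from background with so few such wells. At T3, T6 and T9 there were 14, 5 and 13 pluripotency marker wells. After thinning, 71.4, 100 and 76.9% of them held a Col1a1 UMI and 64.3, 100 and 92.3% a Col3a1 UMI. Their Col1a1 level at T9 was 612 CPM, against 11624 CPM in the other wells. How far free RNA raised the shares of wells at T3 to T9 was not tested.

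**Figure D3:**
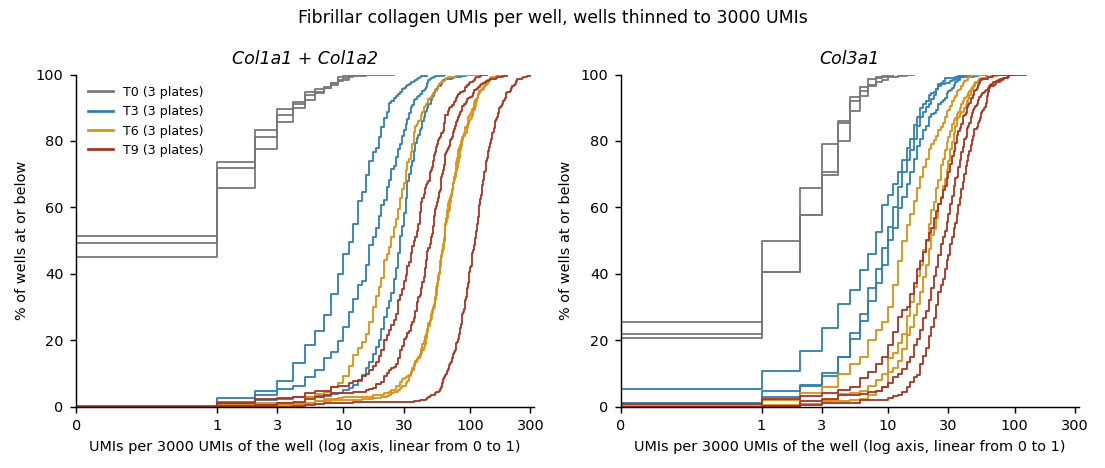
Cumulative percent of wells (y axis) at or below a number of UMIs per 3000 UMIs of the well (x axis, log scale, linear from 0 to 1) for Col1a1 and Col1a2 together and for Col3a1, 1 line per plate. The T0 lines start at 45.2 to 51.3% of wells with no type I UMI, and the T9 plates have medians of 37 to 110.

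The 2 type I chains were compared within wells. The Spearman correlation of thinned Col1a1 and Col1a2 UMIs over the wells of a plate was 0.247 to 0.281 at T0, then 0.326 to 0.538 at T3 and 0.572 to 0.590 at T6, and reached 0.616 to 0.683 at T9. Col1a1 and Col3a1 gave 0.117 to 0.267 at T0 and 0.327 to 0.556 at T9, and Col1a1 and Scx gave 0.02 to 0.14 at T0, 0.00 to 0.03 at T3, 0.05 to 0.14 at T6 and 0.135 to 0.211 at T9. The wells of a plate share a library, and low counts lower these values at T0, so they are given as a description.

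Within plates, wells with a Scx UMI were then set against wells without one, after thinning and with the plate as a block, to ask which collagens were higher where Scx was detected. Some wells lost all their Scx UMIs by thinning and so counted as Scx-negative. At T6, 131, 154 and 156 wells were negative after thinning, against 69, 89 and 82 before it. Before thinning 94, 61 and 63 were negative at T3 and 204, 253 and 243 at T9. How far this mixing of the classes moved the ratios at each time was not tested. At T3 (221, 255 and 257 Scx-positive wells against 101, 108 and 96) only Col3a1 was called among 5 members tested, against 1.12% of all genes. It was 1.21, 1.22 and 1.29 times as high in Scx-positive wells of plates 1, 2 and 3 (log2 fold change 0.33 ± 0.07, adjusted p = 0.00345), while Col1a1 stood at 1.09, 1.01 and 0.818. The call for Col3a1 was lost without plate 2 of T3 (0.33, adjusted p = 0.173) and without thinning (0.38, adjusted p = 0.0946). At T6 none of 6 members was called, against 1.11% of all genes, and DESeq2 called 0, while 3 had an unadjusted p under 0.05 in edgeR (Col1a1 0.00262, Col1a2 0.0158 and Col5a2 0.0289).

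At T9, of 6 members tested 3 were higher in Scx-positive wells (115, 81 and 93 wells against 260, 292 and 270), against 1.46% of all genes called. Col1a1 was 1.21, 1.35 and 1.17 times as high in the 3 plates (log2 fold change 0.31 ± 0.05, adjusted p = 5.76e-08) and Col1a2 1.17, 1.21 and 1.13 times (0.23 ± 0.05, adjusted p = 0.000200). Col5a2 was 3.14, 1.04 and 1.32 times as high (0.74 ± 0.21, adjusted p = 0.0314), a call that rested on plate 1 (0.27 without it, adjusted p = 0.935) and that was lost without the wells holding pluripotency markers (0.71, adjusted p = 0.0764). Col3a1 did not differ beyond its error, at 1.00, 1.05 and 0.971 times (log2 fold change 0.01 ± 0.05). Col5a1 was not called, at 1.15, 1.23 and 1.19 times (log2 fold change 0.23 to 0.26 with 1 plate left out). In edgeR 4 of the 6 members had an unadjusted p under 0.05. Without plate 1 or plate 2, the call for Col1a2 was lost (adjusted p = 0.0737 and 0.131), while Col1a1 was called with any 1 plate left out. A test of the difference between T3 and T9, chosen after the data were seen, gave 0.35 for Col1a1 (adjusted p = 0.0127) and -0.32 for Col3a1 (adjusted p = 0.0239), and neither held without thinning (adjusted p = 0.632 and 0.224) or without any 1 of the T9 plates.

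Wells with a UMI of Tnmd, which were fewer (49, 33 and 22 against 326, 340 and 341), gave the same 3 members at T9, against 1.78% of all genes called. Col1a1 was 1.38, 1.39 and 1.40 times as high in the 3 plates (log2 fold change 0.44 ± 0.08, adjusted p = 1.52e-05), Col1a2 1.43, 1.41 and 1.23 times (0.41 ± 0.08, adjusted p = 0.000134) and Col5a2 3.08, 3.38 and 1.13 times (1.24 ± 0.28, adjusted p = 0.00152). Col3a1 was at 0.05 ± 0.08 on the log2 scale and Col5a1 at 0.25 ± 0.13 (adjusted p = 0.611). The classes overlapped, since Tnmd-positive wells also held more Scx (log2 fold change 1.68 ± 0.20, adjusted p = 3.05e-14). Without plate 1 of T9 only Col1a1 was called, and without plate 2 the adjusted p of Col5a2 was 0.238.

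**Figure D4:**
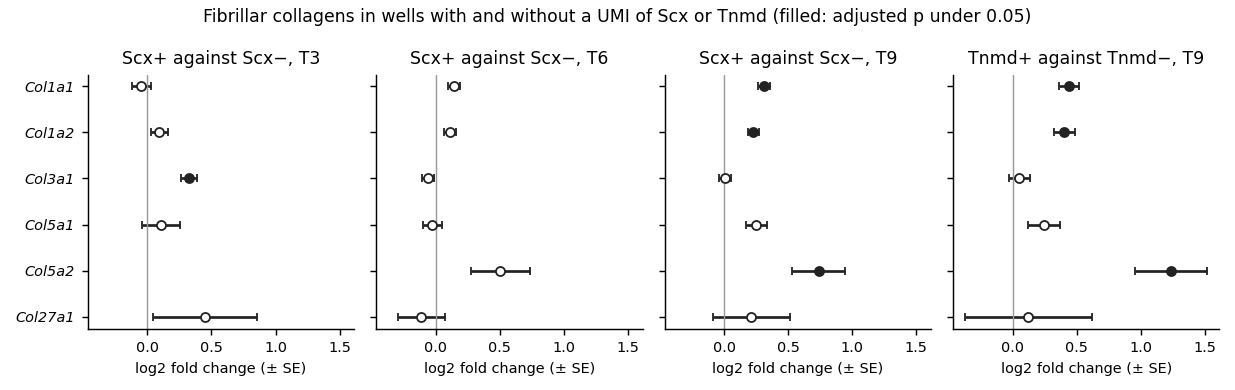
Log2 fold change with its SE for each member that could be tested, in wells with against wells without a UMI of Scx (T3, T6 and T9) or of Tnmd (T9), 3 plates each; filled points have an adjusted p under the threshold of 0.05. Col3a1 is the filled point at T3 (0.33), and Col1a1, Col1a2 and Col5a2 are the filled points at T9.

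In the Achilles tendon, the counts are reads of whole transcripts, so levels between genes are given as RPKM, divided by the length of the longest coding transcript,, and levels of a gene between samples as CPM. Libraries held 11188270 to 12398560 counts. Scx itself was at 103 and 81.3 CPM in Scx_Wt and at 23.1 and 25.1 CPM in Scx_homoKO (log2 fold change -1.88 ± 0.17, adjusted p = 0.000429), so its transcript was reduced but not absent in the libraries labelled Scx_homoKO. Wild-type tendon put 16.7 and 15.0% of its reads into the 8 genes and knockout tendon 8.90 and 10.3%. Per length, the order in Scx_Wt was Col1a1 (13755 ± 744 RPKM, SD, n = 2), Col1a2 (12775 ± 777), Col3a1 (1222 ± 441), Col5a2 (119 ± 28.9), Col5a1 (87.4 ± 24.2), Col5a3 (54.9 ± 16.8), Col27a1 (3.88 ± 1.57) and Col24a1 (2.69 ± 0.316). The ranges of the neighbours Col1a1 and Col1a2, of Col5a2 and Col5a1 and of Col27a1 and Col24a1 overlapped.

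Col3a1, Col5a1 and Col5a2 rose in the knockout, the 3 of 8 members that were called, against 3.84% of 14602 genes. Col3a1 was at 8532 and 5062 CPM in Scx_Wt and at 16010 and 18560 CPM in Scx_homoKO (log2 fold change 1.41 ± 0.31, adjusted p = 0.0378). Col5a1 went from 878 and 591 CPM to 1642 and 2005 CPM (1.37 ± 0.24, adjusted p = 0.0150), and Col5a2 from 921 and 651 CPM to 1615 and 1923 CPM (1.23 ± 0.23, adjusted p = 0.0203). The groups did not overlap for these genes, but 2 of the calls depended on single samples. The adjusted p of Col3a1 was 0.0757 without Scx_homoKO replicate 1 and 0.124 without replicate 2, and that of Col5a2 was 0.0510 without Scx_homoKO replicate 2, where Col5a1 alone was called.

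Type I collagen went the other way. Col1a1 was at 84686 and 78446 CPM in Scx_Wt and at 37413 and 43732 CPM in Scx_homoKO, and Col1a2 at 71262 and 65382 CPM against 31776 and 36521 CPM, so that the wild-type means were 2.01 and 2.00 times the knockout means without overlap. The log2 fold changes of -0.96 ± 0.32 and -0.95 ± 0.31 were not called by edgeR (adjusted p = 0.148 and 0.142). DESeq2 called both at the same size (adjusted p = 9.34e-07 and 7.91e-07), as did edgeR without the filter on low counts (adjusted p = 0.00513 for each) or without Scx_Wt replicate 1 (0.000156 and 0.000165) or replicate 2 (0.000817 and 0.000804). A lone remaining sample is there assumed to vary like the other group.

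Of the remaining members, Col5a3 stood at 408 and 263 CPM in Scx_Wt and 466 and 338 CPM in Scx_homoKO (log2 fold change 0.31 ± 0.22, adjusted p = 0.531), and Col24a1 at 17.6 and 20.8 against 13.9 and 19.6 CPM, with groups that overlapped for both. Col27a1 was at 38.0 and 21.1 against 50.7 and 51.2 CPM (0.85 ± 0.23, adjusted p = 0.0883). It was called by DESeq2 (adjusted p = 0.0395), without the filter on low counts (0.000709), without Scx_Wt replicate 1 (0.00975) and with the replicate number as a block (0.0127). The 3 cartilage relatives all fell, with log2 fold changes of -5.09 for Col2a1 (adjusted p = 5.18e-05), -4.34 for Col11a2 (5.12e-05) and -1.20 for Col11a1 (0.00707).

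**Figure D5:**
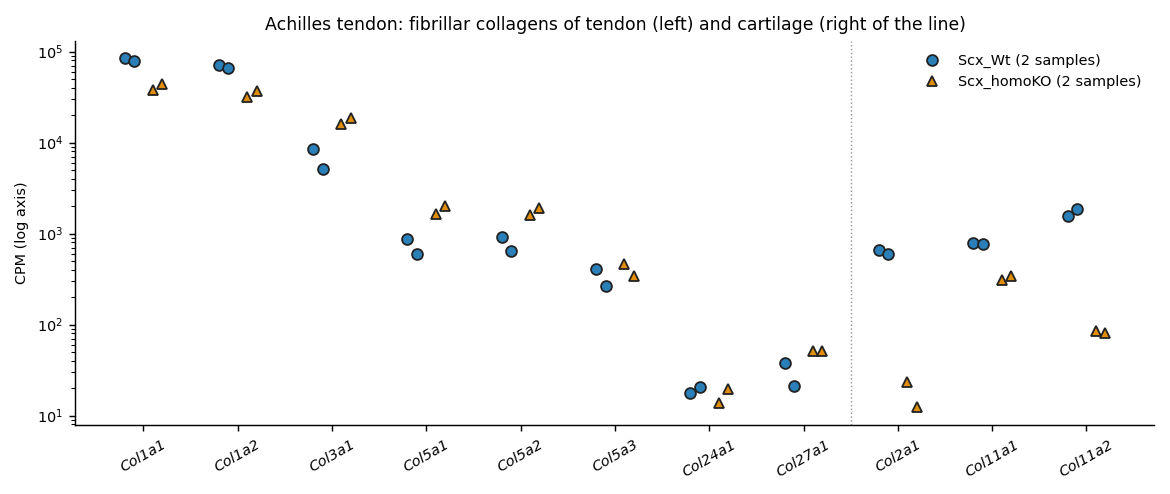
CPM on a log axis of the 8 fibrillar collagens of tendon and of the 3 cartilage relatives in 2 Scx_Wt (circles) and 2 Scx_homoKO (triangles) Achilles tendon samples. Col3a1, Col5a1 and Col5a2 lie higher and Col1a1 and Col1a2 lower in the knockout samples, and Col2a1 and Col11a2 are lower by more than a factor of 10.

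Per length, type III collagen held 5.21 and 3.42% of the members' level in Scx_Wt and 18.4% in both Scx_homoKO samples, the type V genes 1.05 and 0.796% against 3.29 and 3.22%, and type I collagen 93.7 and 95.8% against 78.3% in both. The ratio of Col1a1 to Col1a2 per length stayed between 1.06 and 1.08 in all 4 samples, and that of Col5a1 to Col5a2 between 0.716 and 0.822. The tissue samples differed in other cell types too. The 8 skeletal muscle markers summed to 34444 and 58760 CPM in Scx_Wt and 75166 and 78839 CPM in Scx_homoKO, the 7 cartilage markers to 2362 and 2557 against 130 and 108 CPM, with Matn1 at 0 throughout, and the 10 tenocyte markers to 13140 and 11779 against 6713 and 7173 CPM. Schwann cell markers summed to 707 and 692 CPM in Scx_Wt and to 6125 and 55.6 CPM in Scx_homoKO replicates 1 and 2. The first knockout sample thus stood far above both Scx_Wt samples and the second far below them. Adipocyte markers summed to 4005 and 1616 against 1033 and 599 CPM. Bone markers were near 0, at 0.163 to 2.80 CPM. The part of these cell types in the collagen levels was not tested.

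Genes that process, link and cover fibrillar collagen were followed in the same fits. Of the 17 genes tested for folding and hydroxylation of procollagen, 13 rose from T0 to T9 and 0 fell, with P4ha2, a subunit of prolyl 4-hydroxylase, at 3.72 ± 0.26 on the log2 scale (adjusted p = 6.87e-08). All 4 tested lysyl oxidases, which cross-link fibrils, rose, led by Lox at 9.40 ± 0.45 (adjusted p = 2.25e-09), and 3 of 4 genes for procollagen cleavage rose, with Adamts2, which removes the N-terminal propeptide, at 4.95 ± 0.51 (adjusted p = 3.69e-06). All 10 genes of the fibril surface (small leucine-rich proteoglycans and collagens XII and XIV) rose, among them Kera, which had no UMI at T0. Of 6 tested collagen receptors 3 rose, with Itga1 at 1.42 ± 0.28 (adjusted p = 0.000910), and of 10 regulators of type I collagen genes 5 rose and 2 fell, with Scx at 4.61 ± 0.33 (adjusted p = 9.94e-08) and Smad3, a carrier of the TGF-β signal, at -1.06 ± 0.21 (adjusted p = 0.000874). These counts stand against 45.2% of all genes called at T9.

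In the knockout tendon, fewer genes of these lists were called, and in both directions, against 3.84% of all genes. Of 18 genes for folding and hydroxylation, P4ha2 rose (1.77 ± 0.17, adjusted p = 0.000663) and P4ha1, another subunit of the same enzyme, fell by 1.66 (adjusted p = 0.00134). Of 5 lysyl oxidases, Loxl1 rose (1.59 ± 0.18, adjusted p = 0.00173) and 2 fell, with Loxl4 at -2.76 ± 0.37 (adjusted p = 0.00355). Of 10 fibril surface genes 4 rose, with Col14a1 at 1.47 ± 0.25 (adjusted p = 0.0128), and 2 fell, with Fmod, which shapes fibril width, at -1.89 ± 0.23 (adjusted p = 0.00208). Of 7 genes for procollagen cleavage only Pcolce2, an enhancer of C-propeptide removal, was called (-2.24 ± 0.16, adjusted p = 9.83e-05), and of 8 receptors 2 fell, with Itga10 at -1.52 ± 0.23 (adjusted p = 0.00610). Of 10 regulators 2 fell and 0 rose, Scx among them.

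The genes whose course over the 12 plates was most like that of each member were ranked by Pearson's r of log2 CPM, as a description. For Col1a1 they were Col1a2 (0.995), Thra (0.991) and Mmp2 (0.991), and for Col1a2 the type VI collagen genes Col6a2 (0.996) and Col6a1 (0.996) and Pcsk5 (0.996). Col3a1 was closest to Nucb2 (0.995), Thbs2 (0.993) and Fam114a1 (0.993), Col5a1 to Col16a1 (0.986), Btg2 (0.985) and Lmna (0.984), and Col5a2 to Ndufa4l2 (0.991), the elastin gene Eln (0.991) and Anxa2 (0.991). Col27a1 was closest to Nfib (0.987), Ahnak2 (0.985) and Timp3 (0.983). For Col24a1, with few UMIs, the nearest genes were Slc30a6 (0.926), Atp6v1a (0.816) and Tmem87b (0.782). Among members, r with Col1a1 was 0.968 for Col3a1, 0.976 for Col5a1, 0.961 for Col5a2, 0.902 for Col27a1 and 0.338 for Col24a1, all over plates that share the time and the divide in reads without a feature.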

How the data were processed

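The authors deposited unnormalized counts: UMI counts per gene and well for 12 plates of CEL-Seq2 libraries, aligned to GRCm38 with HISAT2 2.2.1 and counted with featureCounts and UMI-tools 1.0.1, and read counts per gene for 4 polyA Achilles tendon libraries, aligned with HISAT2 2.0.4 and counted with featureCounts 1.5.0, per the labels. UMIs were 6 bases long, 4096 sequences, and the most UMIs of a member in 1 well was 697. The strand setting of the tissue counting is not given in the sources used here.

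UMIs were summed per plate over wells with at least 200 genes (14 wells left out). Rows without a gene held 0.0642% of UMIs. Sums and tissue counts were tested with edgeR 4.0.16 in R 4.3.3 (filterByExpr, TMM, quasi-likelihood test), Benjamini-Hochberg adjusted over all genes of the fit, at a threshold of 0.05, and checked on simulated data. Wells were classed by 1 or more UMIs after thinning to 3000 UMIs. The SE printed with an edgeR log2 fold change was derived from the test, as its absolute value divided by the square root of F. DESeq2 1.42.0 was an alternative. Symbols and positions came from GENCODE for GRCm38 (29528 and 47224 rows matched), promoters from RefSeq (GRCm38.p6). Shares were tested by exact permutation over plates (220 splits), with Python 3.11.15 and scipy 1.17.1.

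The members, lists and tests were chosen with earlier results of these data known. Named were all members, the 3 cartilage relatives, Scx, Tnmd and, from each list, the called gene with the largest rise and fall. Similar genes were the 3 with the highest r among genes of at least 20 CPM on average. Nothing says that plates were separate cultures, so p-values measure the spread between plates, which may be technical. Counting intervals are not given, and the divide between plates uses the study's mapping summary.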

Additional observations from a re-analysis of the deposited data

Results flagged for a closer look

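The difference between wells with and without a Scx UMI was set against itself at T9 and T3, a test of class by time chosen after the data were seen, and differed between the times for 2 of 6 members tested, against 0.272% of 7732 genes. For Col1a1 the interaction was 0.35 on the log2 scale (edgeR, adjusted p = 0.0127): Scx-positive wells were at 1.09, 1.01 and 0.818 times the others in the T3 plates and at 1.21, 1.35 and 1.17 times in the T9 plates. For Col3a1 it was -0.32 (edgeR, adjusted p = 0.0239), from 1.21, 1.22 and 1.29 times at T3 to 1.00, 1.05 and 0.971 times at T9. Without thinning the values were 0.19 (adjusted p = 0.632) and -0.38 (adjusted p = 0.224). Leaving out plates 1, 2 or 3 of T9 or plate 3 of T3 in turn left 0 of the 2 called, and leaving out plate 2 of T3 left Col1a1 alone, with values of 0.23 to 0.42 for Col1a1 and of -0.34 to -0.29 for Col3a1. Without the wells that hold pluripotency markers they were 0.40 (adjusted p = 0.00392) and -0.28 (adjusted p = 0.153).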

How the results depend on the processing

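From T0 to T3, 6 members were called under each setting run, and from T0 to T9 6 or 7, Col24a1 being the seventh without the filter on low counts, with the library divide as covariate and within the plates with more reads without a feature. From T3 to T6, with 4 called, leaving out 1 plate gave 1 to 6, and Col3a1 was not called with the replicate block (0.92, adjusted p = 0.0693) or with only the 6 plates compared (0.88, adjusted p = 0.112). From T6 to T9, with 0 called, DESeq2 gave 2, no filter on low counts 1, the library divide as covariate 6, wells thinned to 3000 UMIs 1, the plates with more reads without a feature 4, those with fewer 2, and leaving out 1 plate 0 to 1. In the knockout, with 3 called, DESeq2 and no filter each gave 6 and leaving out 1 sample 1 to 6. For Scx at T3, with 1 called, no thinning gave 0 and leaving out 1 plate 0 to 1, and for Scx at T9 and Tnmd at T9, with 3 each, leaving out 1 plate gave 1 to 3. The test of class by time, with 2 called, gave 0 without thinning, 1 without pluripotency marker wells and 0 to 2 without 1 plate. The cause was not tested. The difference in the Col1a1 to Col1a2 ratio was 0.298 thinned, 0.272 within plates with more reads without a feature and 0.297 to 0.544 without 1 plate, against 0.44, and within those plates the Col3a1 share differed by 34.2 and the type V share by 2.55 points.

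Values of single genes that changed sign were not called in either fit. For Scx they were Col1a1 at T3 without thinning (0.14), Col5a1 at T6 without thinning (0.21) or with at least 2 UMIs for a positive well (0.0131), Col3a1 at T9 with at least 2 UMIs (-0.0563) or without pluripotency marker wells (-0.0190) and Col27a1 at T9 without thinning (-0.0624). Col27a1 for Tnmd without thinning (-0.21) and Col5a1 in the test of class by time without thinning (-0.0893) also did. Leaving out 1 library gave ranges across 0 for Col24a1 from T0 to T3 (-0.16 to 1.09), from T3 to T6 (-0.94 to 0.30) and in the knockout (-0.46 to 0.10), and for Col5a1 from T6 to T9 (-0.0184 to 0.63). So it did in the classes for Scx at T3 (Col1a1 -0.12 to 0.0799, Col5a1 -0.0597 to 0.30), Scx at T6 (Col27a1 -0.27 to 0.0774), Scx at T9 (Col3a1 -0.0121 to 0.0180), Tnmd (Col3a1 -0.00407 to 0.13) and class by time (Col5a1 -0.0526 to 0.33, Col5a2 -0.11 to 0.64).

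Plates with the same number did not deviate together throughout (correlations -0.563 to 0.515, and 0.0715 in tissue), so numbers were not taken as pairs. The highest values were between T6 and T9, at 0.515 for plate 3 and 0.418 for plate 2. Deviations from the mean of so few samples cannot exclude a pairing. With the replicate block 113 rather than 217 of all genes were called from T6 to T9 and 1108 rather than 560 in the knockout. In the classes, where the plate was the block, no replicate block left 0 members called for Scx at T3, Scx at T9 and Tnmd. Over all genes, the T3 to T6 count of 567 became 899 with DESeq2, 1010 without the filter, 1483 with the covariate, 264 with the 6 plates compared and 291 to 890 without 1 plate. The T6 to T9 count became 579, 684, 813, 45 and 35 to 852, and 330 within plates with more reads without a feature, and 80.0% of calls were higher in the 6 plates against 57.6%. The knockout count became 1415 without the filter.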

Other observations

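Col5a1 and Col5a2 stood in different proportions in the 2 kinds of data. In 3′ UMI tags the plates held 7.52 to 104 Col5a1 UMIs for each Col5a2 UMI, while the reads per length of the 4 Achilles tendon samples gave 0.716 to 0.822. The ratio of Col1a1 to Col1a2 was 0.837 to 1.73 in the plates, with a mean of 1.44 at T0, and 1.06 to 1.08 in the tendon.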
